A study of Mus musculus with 3 samples.

Results

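Mast cell proteases and receptors were read in back skin of mice that lack interleukin 10 and of wild-type mice. The set holds 9 genes, and every probe set whose platform symbol is one of them was taken. Of these genes, 8 have a probe set that names them alone, 11 probe sets in all, out of 18193 genes and 45037 probe sets on the array. The exception is Mrgprb2, which no probe set names in the annotation used here, so it has no value. KOE mice were IL-10 knockouts fed an AIN-93-based diet supplemented with 8% pESM, a powder of eggshell membrane. KO mice were IL-10 knockouts fed the AIN-93-based diet alone, and WT mice were C57BL/6J on that same diet. The knockouts were bred by crossing a purchased IL-10 knockout line with C57BL/6J. All mice were male, were 4 weeks old at the start and were fed for 28 weeks, and the skin was stripped of dermal white adipose tissue. The groups held 6 KOE, 7 KO and 5 WT mice, but each was measured as 1 array of pooled RNA, and the sources used here do not say which mice entered it. No difference has a replicate check, no test across mice was possible, and every value describes a pool.

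Mast cells are resident immune cells of the dermis that store proteases, histamine and heparin in granules and release them when activated. Activation runs through the high-affinity IgE receptor, whose alpha chain Fcer1a binds IgE and whose beta chain Ms4a2 amplifies the signal, or through Mrgprb2, a receptor for basic peptides and drugs. Carboxypeptidase A3 (Cpa3), the chymases Mcpt4 and Cma1 and the tryptases Tpsb2 and Tpsab1 are the granule proteases typical of connective tissue mast cells, the kind found in mouse skin. Hdc makes histamine from histidine and is also expressed by other myeloid cells.

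The promoters shown are those of the 4 genes that reached a signal of 40 on all arrays and of Hdc, which did so in KO alone. GATAA was searched because GATA factors, Gata2 among them, are known regulators of mast cell genes. They are the 250 bases before the RefSeq start on build GRCm38.p6, all on the minus strand, and run 5′ to 3′. The capitals mark GATAA, the core that GATA factors bind, on either strand, so that TTATC is the same letters read from the other strand. The positions are chr3:20242182-20242431 for Cpa3, chr14:56062311-56062560 for Mcpt4, chr14:55944676-55944925 for Cma1, chr19:11623720-11623969 for Ms4a2 and chr2:126618679-126618928 for Hdc.
Cpa3: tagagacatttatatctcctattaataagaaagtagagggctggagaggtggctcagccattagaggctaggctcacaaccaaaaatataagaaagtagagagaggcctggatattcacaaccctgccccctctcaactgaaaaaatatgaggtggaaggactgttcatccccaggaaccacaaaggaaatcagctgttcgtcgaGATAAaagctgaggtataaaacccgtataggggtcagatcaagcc
Mcpt4: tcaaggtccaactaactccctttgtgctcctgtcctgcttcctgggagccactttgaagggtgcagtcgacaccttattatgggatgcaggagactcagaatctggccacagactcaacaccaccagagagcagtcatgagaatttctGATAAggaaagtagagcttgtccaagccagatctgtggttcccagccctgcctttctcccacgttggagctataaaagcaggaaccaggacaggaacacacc
Cma1: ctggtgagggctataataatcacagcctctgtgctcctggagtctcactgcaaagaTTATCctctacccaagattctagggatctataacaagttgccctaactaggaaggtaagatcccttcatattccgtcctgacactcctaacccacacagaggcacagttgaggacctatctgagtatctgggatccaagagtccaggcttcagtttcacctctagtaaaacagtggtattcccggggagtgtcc
Ms4a2: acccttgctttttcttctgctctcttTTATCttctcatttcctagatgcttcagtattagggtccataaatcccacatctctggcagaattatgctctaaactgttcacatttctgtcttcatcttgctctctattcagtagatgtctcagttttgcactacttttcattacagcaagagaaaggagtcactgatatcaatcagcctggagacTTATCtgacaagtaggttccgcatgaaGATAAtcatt
Hdc: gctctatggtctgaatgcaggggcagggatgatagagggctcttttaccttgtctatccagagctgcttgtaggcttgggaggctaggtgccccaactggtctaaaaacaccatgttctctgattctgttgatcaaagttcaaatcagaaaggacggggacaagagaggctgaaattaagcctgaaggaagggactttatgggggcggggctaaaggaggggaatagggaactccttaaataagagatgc
The match lies 40 bases before the start in Cpa3, 97 in Mcpt4 and 189 in Cma1. Ms4a2 holds 3 matches, at 219, 32 and 5 bases, and Hdc holds none. Fcer1a and Mrgprb2 hold 1 each, at 87 and 43 bases, which makes 6 of the 7 genes with a promoter in the table, and Tpsb2 and Tpsab1 were not analysed here. The letters occur in 22.6% of 32851 mouse promoters of the same length. A match is a run of letters and does not show that a factor binds.

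Values are the deposited signal intensities, linear and not logged, with a 2% trimmed mean of 500.003 on each array. For a gene with several probe sets, the one strongest on average was used. A gene was counted as higher or lower where the signals differed by at least 1.5-fold and at least 1 of the 2 signals reached 40, the fold and the signal named in the study's methods. The median signal was 108 in KOE, 96.3 in KO and 116 in WT. Scaling the arrays to a common median would therefore add 0.27 to every log2 ratio of KO over WT, −0.16 to that of KOE over KO and 0.11 to that of KOE over WT. Between probe sets of 1 gene, the log2 ratios of KO vs. WT varied with an SD of 0.31 at mean signals of 200 to 1000 and of 0.71 at 40 to 200. Il10 itself had signals of 401 in KOE, 679.9 in KO and 17.0 in WT, and which stretch of the disrupted gene its probe set reads was not tested. The skin label was checked with Krt10, a keratin of the upper epidermis, which had 36463 in KOE, 33694 in KO and 29571 in WT.

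Most of the mast cell genes stood highest on the KO array, 6 of the 8 at their strongest probe set. The KO signal was above both others at 9 of the 11 probe sets, and the KOE signal was below the KO signal at 11 of 11. These counts take in signals under 40, since 8 of the 11 probe sets reached 40 on at least 1 array. How often all probe sets show these orders was not counted. Counted by probe set, 5 of the 8 that reached 40 in KO or WT were higher in KO and 1 was lower, where 10.6% of all probe sets tested were higher and 20.2% lower. Between KOE and KO, 5 of 7 were lower in KOE and 0 higher, against 5.93% lower and 14.5% higher over all, and between KOE and WT 3 of 7 were lower and 1 higher, against 14.5% lower and 13.2% higher. Of the 8 measured genes, 4 reached a signal of 40 on all arrays, namely Cpa3, Mcpt4, Cma1 and Ms4a2. In bulk RNA, fewer mast cells and less RNA per mast cell cannot be told apart. The plot of signals by probe set shows each value.

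**Figure D1:**
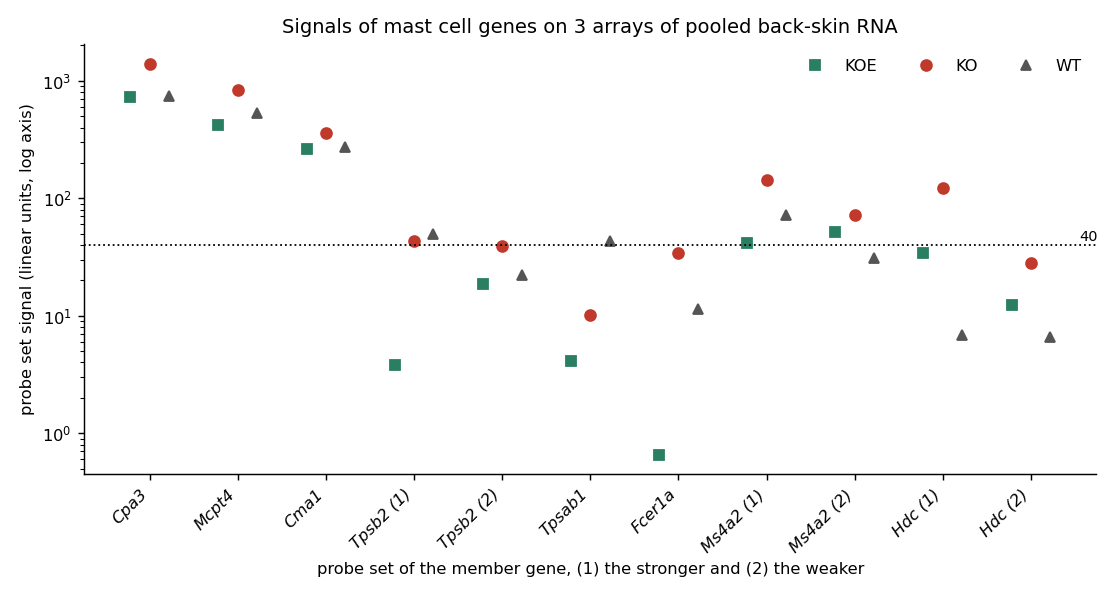
Signal of each probe set of the mast cell genes (log axis, linear MAS5 units) on the KOE, KO and WT arrays, 1 point per pool, with the limit of 40 as a line. Cpa3, Mcpt4 and Cma1 stay above 40 on every array and peak in KO, while Tpsab1 passes it in WT alone and Fcer1a and the second Hdc probe set stay below it.

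Cpa3, the metalloprotease of mast cell granules that degrades peptides, venom toxins among them, had signals of 729 in KOE, 1404 in KO and 744 in WT. It was 1.89-fold higher in KO than in WT and 1.93-fold lower in KOE than in KO, which left KOE and WT nearly level with a ratio of 0.979. The difference of KOE from WT, −0.030 on the log2 scale, turned to 0.079 under scaling to a common median, so it has no settled sign.

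Mcpt4, the chymase that mouse connective tissue mast cells use to cleave matrix and cytokines, had signals of 418 in KOE, 835 in KO and 534 in WT. It was 1.56-fold higher in KO than in WT and 2.00-fold lower in KOE than in KO. KOE lay below WT as well, with a log2 ratio of −0.35 that did not reach the fold limit.

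Cma1, the alpha-type chymase of the same granules, followed the same order with smaller differences and had signals of 264 in KOE, 358 in KO and 271 in WT. Its KO to WT ratio of 1.32 and its KOE to KO ratio of 0.739 did not reach the fold limit. After scaling to a common median both did, with log2 ratios of 0.67 and −0.60. KOE and WT were close to level, with a log2 ratio of −0.037 as deposited and 0.073 after scaling to a common median.

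The tryptases, trypsin-like proteases held on heparin in the granule, gave weak signals. The stronger Tpsb2 probe set had 3.79 in KOE, 43.3 in KO and 50.1 in WT. KO and WT did not differ by the fold limit (ratio 0.865), and the sign of the log2 ratio, −0.21, turned to 0.060 under common median scaling, 0.045 under quantile scaling and 0.30 with the mean of both probe sets. KOE was counted as lower than KO and WT. With every signal under 40 set to 40, the KOE signal was 1.08-fold below KO and 1.25-fold below WT, so the size of that difference rests on a value far under the limit. The other Tpsb2 probe set, which reads several transcripts of the gene, had 18.5, 39.4 and 22.4 in KOE, KO and WT and never reached 40.

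Tpsab1, the second tryptase, is known to be lost in the C57BL/6 strain through a splice site change, and its signals were 4.14 in KOE, 10.1 in KO and 43.6 in WT. Only the signal of WT, itself of that strain, reached 40. The KO and KOE mice were bred from crosses with that strain too, and the part of strain in these values was not tested. KO was 4.32-fold lower than WT by the deposited signals and 1.09-fold lower with signals under 40 set to 40. It was the 1 measured gene of the set counted as lower in KO than in WT.

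The IgE receptor subunits differed in how well they could be read. Ms4a2, the beta chain, had 41.9 in KOE, 143 in KO and 71.5 in WT at its stronger probe set. The KO signal was 2.00-fold higher than WT and KOE was 3.41-fold lower than KO. The second Ms4a2 probe set had 51.7 in KOE, 71.6 in KO and 31.3 in WT. It was 2.29-fold higher in KO than in WT, like the first, but its ratio of 0.722 for KOE vs. KO did not reach the fold limit. Against WT the probe sets went opposite ways, since KOE was 1.71-fold lower at the stronger and 1.65-fold higher at the weaker. No direction is therefore given for Ms4a2 between KOE and WT. Fcer1a, the alpha chain without which the receptor does not reach the cell surface, had 0.657 in KOE, 34.3 in KO and 11.4 in WT and was under 40 on all arrays. KO was the highest of the 3, and no ratio is given at these levels.

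Hdc, the enzyme that makes histamine, had signals of 34.4 in KOE, 123 in KO and 6.85 in WT at its stronger probe set. KO was the only array on which it reached 40. It was counted as 18.0-fold higher in KO than in WT and 3.59-fold lower in KOE than in KO, and both ratios were 3.08-fold once signals under 40 were set to 40. The second Hdc probe set had 12.3 in KOE, 27.9 in KO and 6.57 in WT, under the limit throughout but in the same order. Both Hdc probe sets carry a suffix by which Affymetrix marks probes that other transcripts may share.

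As a group, 4 of the 7 genes that reached 40 in KO or WT were higher in KO (Cpa3, Mcpt4, Ms4a2 and Hdc) and 1 was lower (Tpsab1). Over all genes tested, 10.9% were higher and 14.5% lower in KO than in WT. The median log2 ratio of the 8 genes, Fcer1a included, was 0.78, and 0.52 with signals under 40 set to 40. For the 7 tested genes it was 0.65, while the median over all genes tested was 0.012. Cpa3, Mcpt4 and Cma1 had at least 200 on each array, and 2 of these 3 were higher in KO. Among all genes with at least 200 on both arrays, 7.47% were higher and 5.93% lower in KO.

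Between KOE and KO, 5 of the 6 genes that reached 40 were lower in KOE (Cpa3, Mcpt4, Tpsb2, Ms4a2 and Hdc) and none was higher. Over all genes tested, 5.33% were lower and 10.9% higher in KOE. The median log2 ratio of the 8 genes was −1.53, and −0.69 with signals under 40 set to 40. For the 6 tested genes it was −1.38, against 0.022 over all genes tested. For the 4 genes at 40 or more on all arrays it was −0.97. At signals of at least 200 on both arrays, 2 of 3 mast cell genes were lower in KOE (Cpa3 and Mcpt4), where 1.76% of all such genes were lower and 1.99% higher. This comparison shares the KO array with KO vs. WT, so a high or low reading of that array enters both with opposite sign, and the mirrored values are not independent.

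Against WT, 3 of 6 genes were lower in KOE (Tpsb2, Tpsab1 and Ms4a2) and none was higher, where 10.4% of all genes tested were lower and 12.4% higher. Each of the 3 rests on signals near or under 40. The Ms4a2 count is that of its stronger probe set, against which the weaker one went. It is lost with 40 added to every signal, at a fold of at least 2 and with the mean of both probe sets, where the log2 ratio was −0.024. Cpa3, Mcpt4 and Cma1 did not reach the fold limit, which 4.68% of all genes with at least 200 on both arrays passed as lower in KOE and 6.03% as higher. The summed signal of the 8 genes was 1496 in KOE, 2950.1 in KO and 1733 in WT, most of it from Cpa3 and Mcpt4. The plot of log2 ratio against signal sets the genes among all others.

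**Figure D2:**
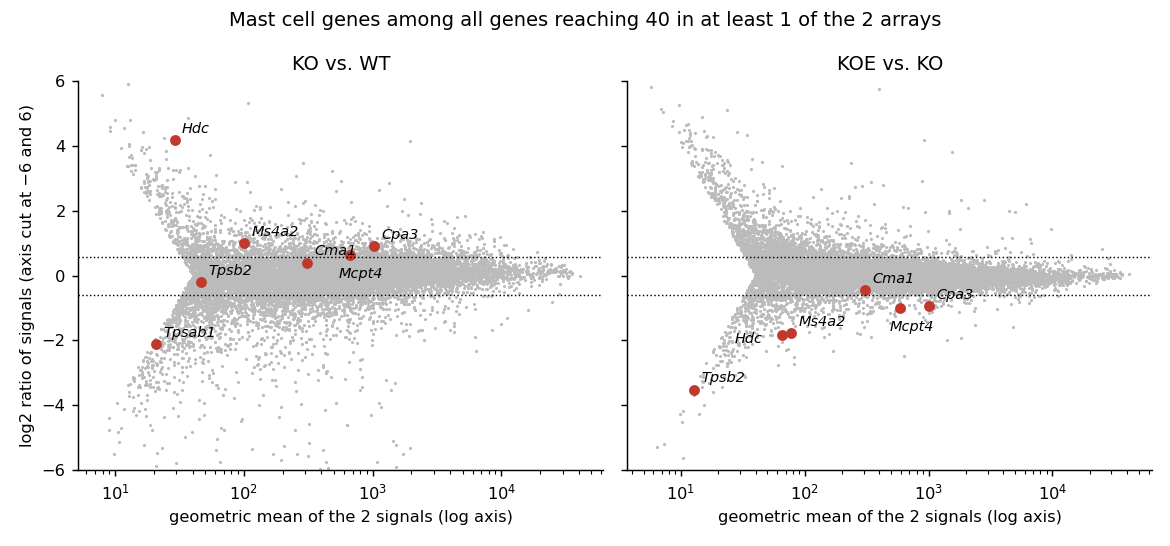
Log2 ratio (KO vs. WT left, KOE vs. KO right, cut at −6 and 6) against the geometric mean of the 2 signals (log axis) for all genes reaching 40 in at least 1 of the 2 arrays (grey), with the mast cell genes in red and 1.5-fold as dotted lines. Cpa3 and Mcpt4 lie above the upper line for KO vs. WT and below the lower line for KOE vs. KO, at signals where the grey cloud is narrow.

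The scaling between arrays changed the distances more than the order. For KO vs. WT, Cpa3 ranged between 0.89 and 1.18 and Mcpt4 between 0.65 and 0.92 on the log2 scale over the deposited signals, common median, quantile and cyclic loess scaling. For KOE vs. KO, Cpa3 ranged between −1.11 and −0.93 and Mcpt4 between −1.16 and −0.99. Ms4a2 stayed between 1.00 and 1.27 in KO vs. WT and between −2.01 and −1.77 in KOE vs. KO at its stronger probe set.

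**Figure D3:**
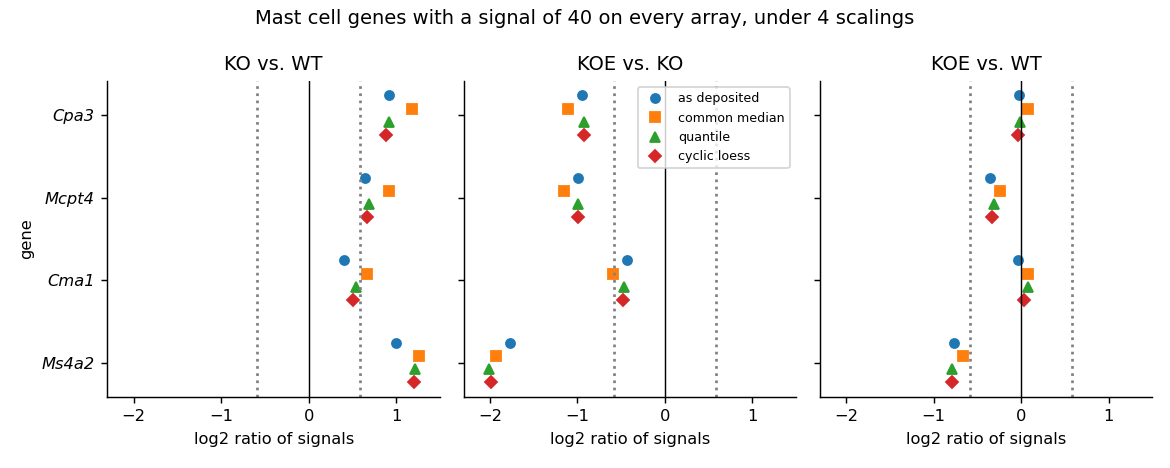
Log2 ratios of the 4 mast cell genes with a signal of at least 40 on every array, under 4 scalings (symbols), in panels for KO over WT, KOE over KO and KOE over WT, with 1.5-fold as dotted lines. Cma1 crosses the dotted line under common median scaling alone, and Cpa3 and Cma1 straddle 0 for KOE vs. WT.

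Mcpt4 and Cma1 lie in 1 block of serine protease genes on chromosome 14, which also holds the mucosal mast cell proteases Mcpt1 and Mcpt2, the basophil protease Mcpt8, the neutrophil protease Ctsg and the granzymes. Of 15 genes in the block 13 were measured, and 3 reached 40 on at least 1 array, namely Cma1, Mcpt4 and Gzmc. Mcpt1 had 36.2 in KOE, 2.76 in KO and 13.9 in WT, and Mcpt2 had 9.68, 6.33 and 7.88 on the same arrays. Mcpt8 had 3.66, 5.62 and 2.98, and Ctsg 7.28, 18.4 and 2.35. The genes typical of mucosal mast cells and of basophils in this block were thus under 40 on each array, while the chymases of connective tissue mast cells were above it. Gzmc, a granzyme of cytotoxic cells, had 65.6 in KOE, 29.2 in KO and 134 in WT, so KO was the lowest array where it was the highest for the chymases.

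**Figure D4:**
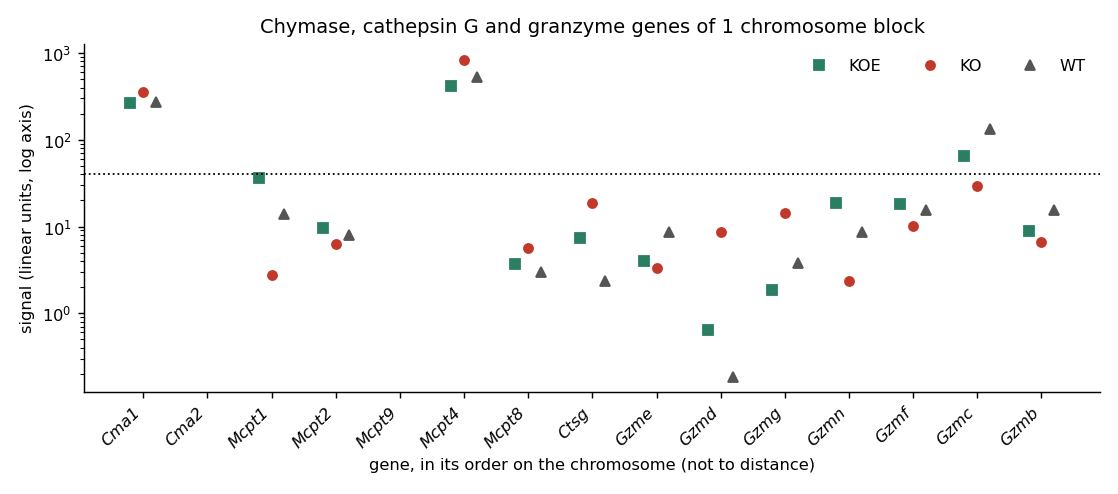
Signals (log axis, linear MAS5 units) of the serine protease genes of the block on chromosome 14, in chromosome order, on the KOE, KO and WT arrays, with the limit of 40 as a line. Cma1 and Mcpt4 lie above the line on all arrays, Gzmc on the KOE and WT arrays, and the other measured genes below it, with no value for Cma2 and Mcpt9.

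Other genes that mast cells are known to express did not all follow the proteases. Of 21 measured genes, 4 of 17 tested were higher in KO than in WT and 3 lower, with a median log2 ratio of 0.26. Over all genes tested, 10.9% were higher and 14.5% lower. In KOE 0 of 15 were higher and 2 lower than in KO, with a median of −0.27, where 10.9% of all genes tested were higher and 5.33% lower. Kit, the stem cell factor receptor that mast cells need for survival, had 229 in KOE, 226 in KO and 361 in WT at its stronger probe set, 1.60-fold lower in KO than in WT. At its other probe set Kit had 60.0 in KOE, 32.1 in KO and 83.3 in WT. There it was 2.60-fold lower in KO than in WT and 1.87-fold higher in KOE than in KO. Kit is shared with melanocytes, whose marker genes were lower in KO for 7 of 8, and which cells the Kit signal comes from was not tested. Mitf, a transcription factor of both cell types, had 1669.8 in KOE, 1529 in KO and 1948 in WT at its stronger probe set, within the fold limit. Its other probe set had 111 in KOE, 87.1 in KO and 146 in WT and was 1.68-fold lower in KO than in WT.

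Tph1, the enzyme with which mouse mast cells make serotonin, had 6.73 in KOE, 56.2 in KO and 2.42 in WT, so that KO alone reached 40, as for Hdc. Gata2 had 203 in KOE, 271 in KO and 174 in WT at its stronger probe set, 1.56-fold higher in KO than in WT. At its other probe set it had 156 in KOE, 66.8 in KO and 69.3 in WT, so the order of KOE and KO turned round. Srgn, the proteoglycan core that holds proteases in granules, had 1979 in KOE, 2447 in KO and 2311 in WT, and Alox5ap, needed to make leukotrienes, had 1314, 1788 and 1475. Neither reached the fold limit. Adora3, an adenosine receptor that augments degranulation in mice, had 28.0 in KOE, 16.0 in KO and 67.9 in WT at its stronger probe set, and its other probe set, under 40 throughout, was highest in KO.

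In the signaling chain below the IgE receptor, 2 of 26 tested genes were higher and 1 lower in KO than in WT, with a median log2 ratio of 0.10, where 10.9% of all genes tested were higher and 14.5% lower. In KOE, 3 of 26 were higher and 2 lower than in KO, with a median of −0.02, near the 10.9% and 5.33% over all genes tested. Gab2, an adaptor of the receptor, had 815 in KOE, 870.3 in KO and 480.3 in WT at its strongest probe set and was 1.81-fold higher in KO than in WT. Its weaker probe sets had KO to WT ratios of 1.63 and 1.09, the latter within the fold limit. Plcg2, a phospholipase that starts the calcium signal, had 939 in KOE, 550.3 in KO and 858 in WT, lower in KO than in WT and 1.71-fold higher in KOE than in KO. The SNARE proteins of granule release, Vamp8 (5720.3 in KOE, 6245 in KO and 5764 in WT) and Stx4a (2562, 2576 and 2030.0), lay within the fold limit. The kinase subunit Pik3cd had 3843 in KOE, 2512 in KO and 3239 in WT, with KOE 1.53-fold above KO. Most of these genes are used by many blood cells.

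Of the genes for histamine receptors and its removal, 1 of 5 tested was higher in KO than in WT and 3 were lower. The shares over all genes tested were 10.9% higher and 14.5% lower. Hnmt, the enzyme that methylates histamine, had 383 in KOE, 544 in KO and 296 in WT, 1.84-fold higher in KO than in WT and within the fold limit in KOE vs. KO. Hrh1 had 63.5 in KOE, 71.0 in KO and 84.0 in WT, and Hrh2 had 35.9, 14.6 and 62.4. The signal of the histamine receptor Hrh3 was 81.0 in KOE, 36.9 in KO and 65.6 in WT. The genes lower in KO were thus the weakly read receptors Hrh2 and Hrh3 and, besides them, Aoc1, an amine oxidase that degrades histamine.

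Among growth and activating signals for mast cells, 3 of 8 tested genes were higher in KO than in WT and 0 lower, the median log2 ratio being 0.35. The shares over all genes tested were 10.9% higher and 14.5% lower. Tslp, an epithelial cytokine that activates mast cells, had 139.8 in KOE, 303 in KO and 100.4 in WT, 3.02-fold higher in KO than in WT and 2.17-fold lower in KOE than in KO, the 1 gene of this list that was lower in KOE. Il33, an epithelial alarmin, had 1777 in KOE, 1822 in KO and 1101 in WT, so KOE stayed close to KO. Kitl, the growth factor for Kit, had 1099.9 in KOE, 1069 in KO and 1539 in WT at its strongest probe set, within the fold limit. Its other 3 probe sets were 1.59-fold to 1.67-fold lower in KO than in WT, with 392.4 in KOE, 330.1 in KO and 523 in WT at the strongest of these. The chemokine Cxcl12 had 3783 in KOE, 3495 in KO and 3612 in WT, within the fold limit.

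Markers of other cell types moved with the mast cell genes in part. Of the 12 macrophage and dendritic cell genes, none was past the fold limit in KO vs. WT, but 5 were lower and 1 was higher in KOE than in KO, with a summed signal of 26874 in KOE, 30319 in KO and 28803 in WT. The 5 were C1qa, C1qb, C1qc, Mrc1 and Cd163, and the 1 higher was Itgax, a dendritic cell integrin. Of the tested neutrophil genes, 3 of 6 were higher and 1 lower in KO than in WT, and 4 were lower and 1 higher in KOE than in KO. Over all genes tested, 10.9% were higher and 14.5% lower in KO than in WT, and 5.33% lower and 10.9% higher in KOE than in KO. The neutrophil genes had a summed signal of 835 in KOE, 1609 in KO and 1338 in WT, most of it from S100a8 and S100a9. Elane went the opposite way in both comparisons, with 44.4 in KOE, 26.0 in KO and 46.1 in WT. S100a9 had 282 in KOE, 550.2 in KO and 187 in WT, and Ngp had 52.5, 80.9 and 26.5. S100a8 had 293 in KOE, 815 in KO and 982 in WT, a different order. Basophil genes gave 2 tested of 5 measured, Itga2 and Gata1, of which none was past the fold limit in KO vs. WT and 1 was lower in KOE. All 5 measured eosinophil genes were under 40.

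The pan-leukocyte genes, 6 in number, gave none past the fold limit in KO vs. WT and 1, Cd53, lower in KOE. Ptprc, carried by all white blood cells, had 1347 in KOE, 1477 in KO and 1468 in WT. T and natural killer cell genes gave 1 of 5 higher in KO, Cd8a, and none past the fold limit in KOE vs. KO. For these and the following lists, the shares over all genes tested were 10.9% higher and 14.5% lower in KO than in WT. Between KOE and KO they were 5.33% lower and 10.9% higher in KOE. The makeup of the skin differed more widely. Of 10 skeletal muscle genes, KO had 8 lower than WT and 1 higher, Myh2, with 312 in KO and 178 in WT. KOE had 9 muscle genes higher than KO, and the summed signal was 39765 in KOE, 9986 in KO and 27497 in WT. Of 6 adipocyte genes, KO had 6 lower than WT, and KOE had 6 higher than KO, with 15521 in KOE, 7508 in KO and 24714 in WT. Hair genes summed to 1173 in KOE, 1225 in KO and 157494 in WT, and melanocyte genes to 2265, 1344 and 14688. Keratinocyte genes summed to 159254 in KOE, 153887 in KO and 131219 in WT, with none of 8 past the fold limit in either comparison, and 1 of 8 fibroblast genes, Col1a1, was lower in KO than in WT. Most muscle genes and the adipocyte genes moved opposite to most of the mast cell genes in both comparisons. The part of these other cell types in the mast cell differences was not tested.

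**Figure D5:**
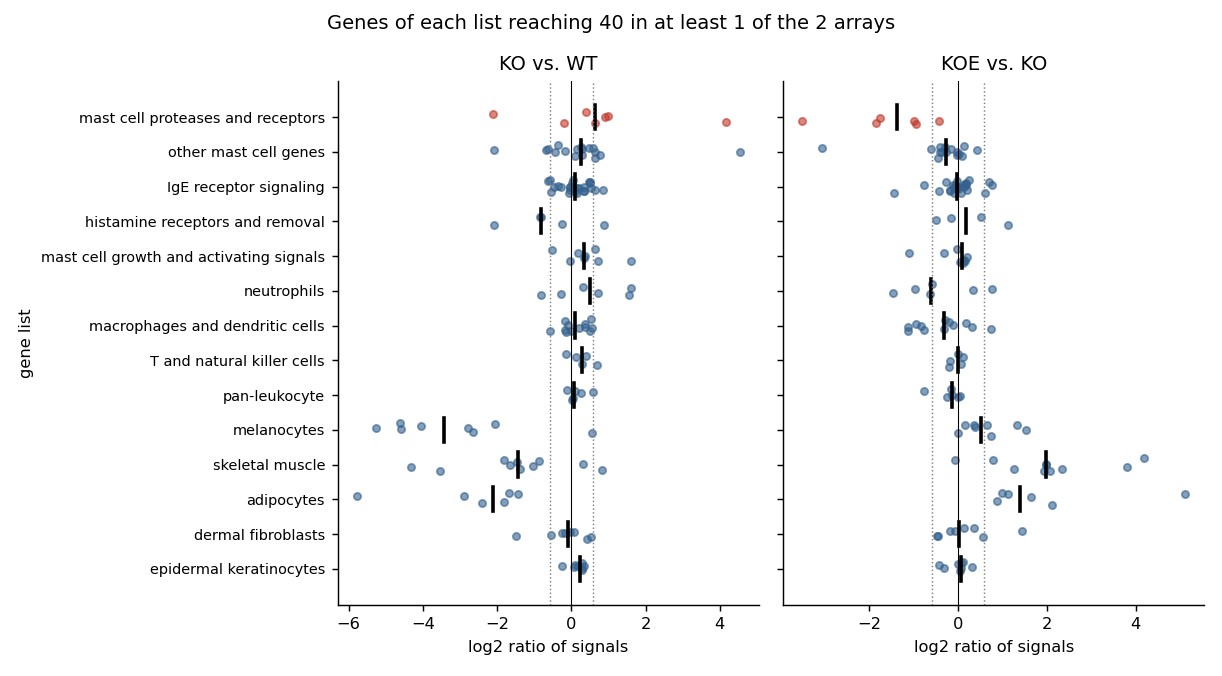
Log2 ratios of every tested gene (points) in each gene list except hair, basophils and eosinophils, with the list's median as a bar, KO over WT left and KOE over KO right, and 1.5-fold as dotted lines. Mast cell genes lie mainly right of 0 for KO vs. WT and left of it for KOE vs. KO, while most muscle genes and the adipocyte genes lie the other way.

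The genes most alike in pattern were sought among 9506 genes with a signal of at least 200 on all arrays, by the distance of their 2 log2 ratios from the medians of the mast cell genes. These medians, 0.78 and −1.53, hold ratios of signals under 40. No gene lay within a distance of 0.25 of them. The nearest were Cd163, a scavenger receptor of macrophages, at a distance of 0.45 and the mannose receptor Mrc1 at 0.47. Cd163 had 677 in KOE, 1493 in KO and 1017 in WT, and Mrc1 had 1189, 2612 and 1826. Cluap1, Slc10a6 and Klk6 followed at 0.55, 0.56 and 0.62, and Slc10a6, a transporter of sulfated steroids, had 784 in KOE, 1577 in KO and 798 in WT, close to the Cpa3 values in shape. Against the medians of the 4 genes at 40 or more on all arrays, 0.78 and −0.97, a comparison added after the data were seen, 16 genes lay within 0.25 and the nearest were others. Clec10a, a lectin of macrophages and dendritic cells, came first at 0.075, with 817 in KOE, 1527 in KO and 873 in WT. Cd209d, another C-type lectin, followed at 0.13, with 1042 in KOE, 1966 in KO and 1057 in WT, and then Emilin2, Clec3b and Fos at 0.14, 0.14 and 0.16. The likeness is over 3 arrays and is a description.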

How the data were processed

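Back skin RNA of KOE, KO and WT mice was measured on 3 Affymetrix mouse arrays, 1 pool per group, from 250 ng of RNA. The deposited values are signal intensities, linear, which the authors converted in R and normalized with Affymetrix Microarray Analysis Suite. Detection calls and images were not used here. Control probe sets, 64 in number, were left out. Of the rest, 34945 have 1 gene in the platform annotation, 932 several and 9160 none here, and 34741 symbols were updated by gene identifier.

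Ratios were taken from the deposited signals for 3 comparisons. All members are named with every probe set, and from each other list the 3 genes with the highest mean signal and the 2 with the largest KO vs. WT difference, of which some are given as counts only. Il10, Kit, Gata2, Aoc1, Gzmc, Elane, Itgax, Cd53, Cd8a, Myh2 and the macrophage genes lower in KOE were added after their values were seen. The members and lists were chosen with earlier results of these data known. Alternatives changed scaling (common median, quantile, cyclic loess with span 0.7 and 3 iterations), the signal limit, the fold limit, an offset of 40 and the joining of probe sets. The counting of higher and lower genes was tested on simulated data, at signals of at least 200 and with planted changes well past the fold limit. That test does not cover weaker signals or changes near the limit. Python 3.11.15, pandas 2.3.3, numpy 2.4.6, R 4.3.3 and limma 3.58.1 were used. The number of arrays, 1 per group, limits the precision.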

Additional observations from a re-analysis of the deposited data

How the results depend on the processing

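The medians of the 3 comparisons kept their sign under the alternatives tried. For KO vs. WT the 4 higher genes became 1 at a fold of at least 2, beside 1 lower, and the 1 lower gene became 0 with at least 40 in both arrays, with at least 100 in at least 1 array and with signals under 40 set to 40, an alternative added after seeing the data. The median of 0.78 moved by less than the spread between probe sets.

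For KOE vs. KO the 5 lower genes became 3 with at least 40 in both arrays and 3 at a fold of at least 2. The median of −1.53 became −1.88 under quantile and −1.82 under cyclic loess scaling, −0.97 with 40 in both arrays, −0.998 with at least 100, −0.92 with 40 added, −1.20 with the mean of all probe sets and −0.69 with signals under 40 set to 40. Fewer genes enter the stricter limits, and the cause of the other shifts was not tested.

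For KOE vs. WT the 0 higher genes became 1 with no signal limit. The 3 lower genes became 1 with 40 in both arrays, 0 with at least 100, 1 with the mean of all probe sets and 1 with signals under 40 set to 40. The median of −0.56 became −0.19 with 40 in both arrays, −0.037 with at least 100, −0.19 with the mean of all probe sets and −0.080 with signals under 40 set to 40. Of the single gene ratios under alternatives, 139 stayed within the spread and 29 moved beyond it. That spread is the one at mean signals of 200 to 1000, which is narrower than the one at 40 to 200. Settings that change only the signal limit cannot change a ratio, and some others leave certain genes as they were. Part of the 139 was therefore fixed in advance. None of the ratios past the cut-off changed sign, but 3 within it did, 7 times in all, namely Tpsb2 in KO vs. WT and Cpa3 and Cma1 in KOE vs. WT.

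Among all gene calls of KO against WT, 42.9% were higher as deposited, 72.4% after common median and 57.4% after quantile scaling. The share was 67.1% for KOE vs. KO as deposited, against 47.1%, 49.6% and 48.4% after common median, quantile and cyclic loess scaling. For KOE vs. WT it was 54.3%, and 66.6% after common median scaling. No paired analysis was possible because each group is 1 array and the labels carry no replicate numbers, and leaving out a replicate was not possible. Signals under 40 limit the reading of Tpsb2, Tpsab1, Fcer1a and Hdc.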

Other observations

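Mrgprb2 has no value, but relatives of it do. Of 9 probe sets that name other genes of the Mrgpr family, chosen after their values were seen, 5 reached 40 on at least 1 array. Mrgprb1 had 71.7 in KOE, 37.8 in KO and 64.3 in WT, Mrgpra1 had 68.3, 28.7 and 44.3, and Mrgprf had 229.7, 131 and 177. These were lowest in KO. Mrgpre had 69.7 in KOE, 50.7 in KO and 39.1 in WT, and the probe set of Mrgpra2a and Mrgpra2b had 64.1, 47.9 and 36.8, both lowest in WT. All 5 were highest in KOE, and how often all probe sets were highest there was not counted. Over all probe sets tested, 14.5% were at least 1.5-fold higher and 5.93% lower in KOE than in KO.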
